A study of Ovis aries with 10 samples.

Results

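Exonic circular RNAs (circRNAs) of 2 or more blocks whose joined splice sites lie at least 50000 bases apart on the genome made up 86 of the 8721 circRNAs listed in muscle libraries of small-tailed Han sheep. They were chosen by annotation among circRNAs with an entry in a library of the series. Their listed sequence is exonic, is made of at least 2 separate blocks, and spans at least 50000 bases from the first to the last base. Their spans ran from 50257 to 89571 bases, with a median of 58392. Of any type, 137 circRNAs spanned at least 50000 bases, and the others were 21 exonic ones of 1 block, 13 intronic and 17 intergenic. Beyond the presence of an entry, no read count was part of the rule. The samples were 5 libraries of sham-operated sheep and 5 of ovariectomized sheep of the same breed, a comparison set up to study how estrogen acts on muscle of females. Ovaries are the main source of estrogen, so ovariectomy removes most of it. The tissue is labelled longissimus dorsi, which runs along the back, but primary myoblasts are named as well, and no age is given. The labels thus leave whole muscle and cultured cells both possible, and they do not state that each library is a different animal. P-values then measure only the spread between these libraries, which may be technical.

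A circRNA forms when a downstream splice donor is joined to an upstream splice acceptor, a reaction called back-splicing. The introns that flank the exons must bring the joined sites together, and the introns inside the circle are usually spliced out, so a circle that covers a long stretch of genome can still be a short RNA. Closed circles have no free ends and resist exonucleases, and circRNAs are known to be plentiful in muscle and brain. Levels are given in junction reads, the reads that cross the back-splice junction. Non-junction reads are listed beside them in the deposited table, where they are not defined. In bulk samples fewer cells of a type and less RNA per cell cannot be told apart.

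The libraries held 35731 to 67061 junction reads, with ovariectomized replicate 5 the deepest. Of 13 muscle fiber genes on a marker list, 11 hosted a circRNA, with 1386 to 2063 junction reads in sham and 1537 to 1692 in ovariectomized libraries. The myoblast transcription factor genes PAX7, MYF5, MYOD1 and MYOG hosted none. Of the 8 satellite cell and myoblast genes 3 did (NCAM1, MET and DES), and their summed reads were 52 to 76 in sham and 102 to 147 in ovariectomized libraries. Ranges of the other lists overlapped: endothelial 17 to 38 and 10 to 52 from 4 of 7 genes, fibroblast and matrix 42 to 61 and 34 to 121 from 2 of 8, smooth muscle and pericyte 34 to 74 and 40 to 82 from 2 of 6, adipocyte 0 to 10 and 0 to 8 from 2 of 5. None of the 5 immune genes hosted one. Junction reads of marker hosts are not a measure of cell content. Whether cell types differed between the groups, and what part that had in any result below, was not tested.

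The 86 circRNAs came from 77 host genes, 76 of them annotated as protein coding. The host of each of the 86 circRNAs was found in the ARS-UI_Ramb_v3.0 gene table. They lay on 24 chromosomes, with 11 on chromosome 3 and 8 on chromosome 1. Host genes with one such circRNA numbered 70, another 5 had 2 and another 2 had 3. Hosts by function ranged over kinases and GTPase regulators (MARK3, PRKCE, CDK19, DOCK1, ARHGAP10), calcium handling (MICU3, ITPR2, CACNA2D1), RNA-binding and RNA-processing proteins (QKI, STAU2, RNGTT, CNOT2) and chromatin proteins (ATRX, RERE, ZMYND11, KMT2E, PCGF5). This grouping was made after the names were seen and carries no test.

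Over the whole table, 77 of 3435 host genes gave a long-span circRNA. Of 29 listed kinases, phosphatases and GTPase regulators, 23 hosted some circRNA and 4 hosted a long-span one (ARHGAP10, DOCK1, PRKCE and RAPGEF2), with 6 circRNAs and 589 reads. Of 36 giant muscle and cytoskeleton genes, 26 hosted some circRNA and 2 a long-span one, DMD and CACNA2D1. The sarcomere giants TTN and NEB were not among the long-span hosts. Of 15 RNA-binding genes, 12 hosted some circRNA and 2 a long-span one, QKI and STAU2, with 681 reads. Of 39 transcription and chromatin genes these numbers were 31 and 2 (NFIB and KMT2E). Of 13 DNA repair genes they were 9 and 1 (REV3L). Some circRNA came from 18 of 23 ubiquitin and SUMO genes and 10 of 19 adhesion and matrix genes, but no long-span one. The lists are incomplete. The deubiquitinase gene MINDY3 was not on the ubiquitin and SUMO list. ATRX, RERE, ZMYND11 and PCGF5 were not on the chromatin list. The counts thus cover the listed genes only.

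By their listed blocks, these circles were about as long as those of shorter span. Their median listed spliced length, the sum of the blocks, was 315.5 bases, against 318 in the 6083 exonic circRNAs of 2 or more blocks and shorter span, whose median span was 7889 bases. Of the 86, 32 had 2 blocks, 32 had 3, 14 had 4 and 8 had 5 or more. The most blocks were 8, in the circRNA of MINDY3. Blocks reached both ends of the span in 68 circRNAs. In these 68 the longest stretch between neighbouring blocks was 20054 to 84618 bases, with a median of 52788, and took more than 80% of the span in 42. With strand taken into account, the longest gap was the most 3′ gap in 25, the most 5′ in 14 and an internal one in 13 of the 52 that had at least 2 gaps.

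The listed blocks should not be read as the full exon content. In 18 circRNAs the blocks did not reach an end of the span, 16 of them among the 32 with 2 blocks. The share whose blocks reached both ends was 79.1% here and 86.2% in the shorter set. In 69 of the 86, other circRNAs of the same host listed exon blocks inside the span that the long-span circRNA itself did not list, up to 11 blocks for a single circRNA. RERE, which encodes a transcriptional corepressor, shows this with a pair of circRNAs from one start on chromosome 12. The shorter, novel_circ_0011395 (44226705 to 44280988), listed 5 blocks. The longer, novel_circ_0011396 (44226705 to 44309279), listed 3, of which 2 were shared with the shorter. It jumped over the other 3 to a block that began 82476 bases downstream of the start. The longer had 13 reads in 2 libraries against 67 in 10 for the shorter. Whether those exons are skipped in the circle or were not covered by reads was not tested.

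**Figure D1:**
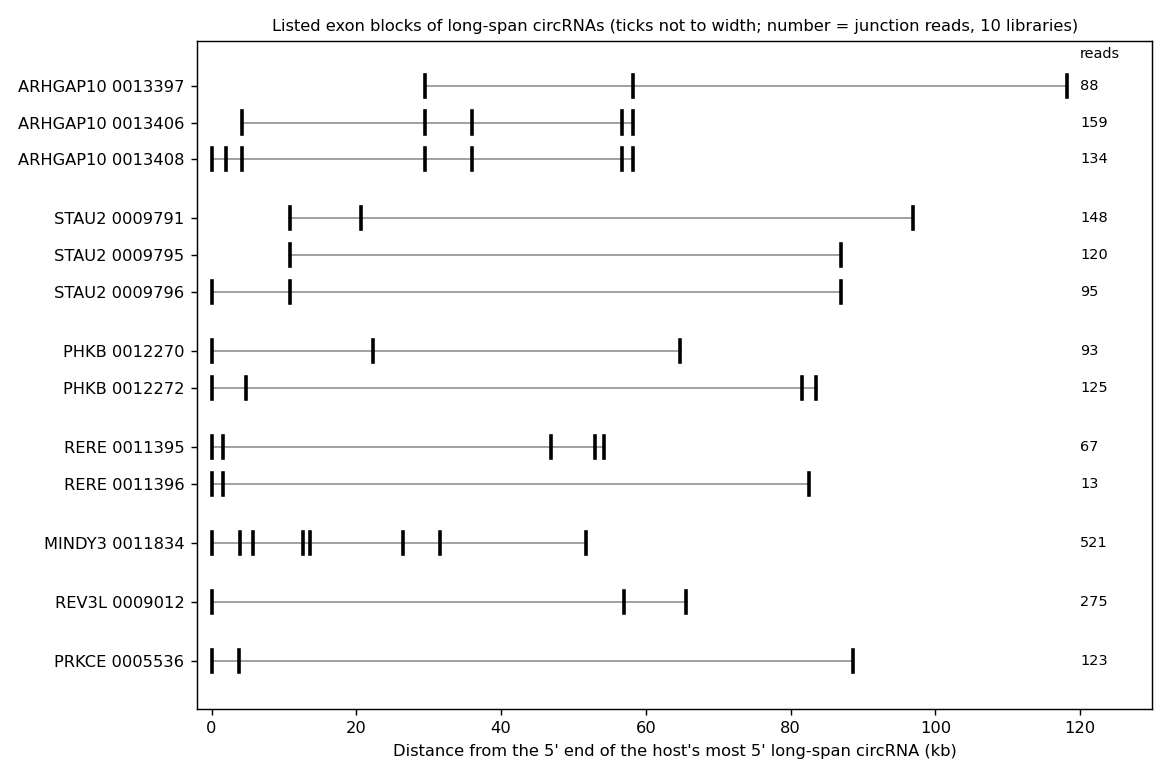
Listed exon blocks (ticks) along the span (line) of 13 long-span circRNAs from 7 hosts, in the direction of transcription, in kilobases from the 5′ end of each host's most 5′ long-span circRNA; the number at the right is junction reads over 10 libraries. The PRKCE circRNA has 1 gap of 84618 bases, while that of MINDY3 lists 8 blocks along its span with a longest gap of 20054 bases.

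Most long-span circRNAs were one of several circles from their gene. Only those of CDK19, a kinase of the Mediator complex, and GPHN, which encodes the scaffold protein gephyrin, were the sole circRNA of their host. Their hosts gave a median of 6 circRNAs. A start or an end was shared with another circRNA of the host in 75 of 86, and 75 had a further circRNA nested inside their span. The median long-span circRNA held 10.5% of its host's junction reads. Of the 84 whose host gave other circRNAs, 15 were the most abundant of their host. REV3L stood at one end, with 94.2% of host reads in its long-span circRNA, and KIFAP3, which encodes an adaptor of kinesin-2 motors, had 74.6%. At the other end novel_circ_0007870 of HOMER1, which encodes a synaptic and muscle scaffold, held 0.497%.

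Reads per circRNA were low to moderate. The 86 together held 6312 junction reads, 1.42% of all junction reads and 1.65% of those of exonic circRNAs of 2 or more blocks. Totals ran from 2 to 521 over the 10 libraries, with a median of 34.5. The 12 most abundant held 51.1% of the reads, and 25 had at most 10 reads.

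The most abundant was novel_circ_0011834 of MINDY3, a deubiquitinase gene (chromosome 13, 29706983 to 29758728, minus strand). Sham replicates 1 to 5 gave 38, 33, 36, 28 and 80 junction reads, and the ovariectomized replicates, in the same order, 35, 51, 63, 55 and 102. The group ranges overlapped, and replicate 5 was the highest of each group. It was listed with 415 non-junction reads, 0.797 per junction read, the lowest ratio among the 22 long-span circRNAs with at least 100 reads. Their median was 14.6 and the highest was 143.9, in novel_circ_0012272 of PHKB.

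Second was novel_circ_0014284 of MARK3, a kinase that regulates microtubule binding proteins (chromosome 18, 65788657 to 65840350, plus strand). Its 5 blocks gave sham counts of 17, 32, 31, 26 and 29 and counts of 35, 59, 30, 33 and 63 after ovariectomy. In raw reads 4 of 5 ovariectomized libraries lay above the highest sham value of 32. In reads normalized for depth 2 of 5 did, at 60.0 and 39.0 against a sham maximum of 38.5, and the groups overlapped. The third, novel_circ_0016754 of MICU3, which encodes a regulator of mitochondrial calcium uptake (chromosome 26, 19283596 to 19335087, minus strand), had sham counts of 32, 41, 49, 41 and 20 and counts of 52, 31, 18, 26 and 33 after ovariectomy. The highest of all 10 values was in an ovariectomized library, and the groups overlapped.

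QKI encodes an RNA-binding protein that is itself known to promote circRNA formation. Its novel_circ_0009469 (chromosome 8, 86614489 to 86680244, plus strand) had sham counts of 17, 29, 33, 15 and 44, widely overlapped by the 15, 57, 28, 31 and 49 of the ovariectomized libraries. It was the second circRNA of its host by reads, with 37.5% of them. The kinesin adaptor circRNA novel_circ_0011328 of KIFAP3 (chromosome 12, 36900941 to 36952794, minus strand) had 24, 15, 31, 34 and 24 reads against 29, 28, 34, 43 and 43. The groups overlapped, with 28.1 ± 6.76 normalized reads for sham and 31.7 ± 4.68 for ovariectomy (SD, n = 5 each). Normalized reads are junction reads put on a common depth, the geometric mean of the scaled sizes of the 10 libraries.

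RAB28 encodes a small GTPase of the Rab family. Its novel_circ_0007228 (chromosome 6, 109260058 to 109347419, minus strand) spanned 87362 bases with 6 blocks and held 54.6% of host reads. Counts ran 10, 24, 26, 34 and 27 over the sham replicates, then 31, 22, 22, 27 and 36 over the others. Sham replicate 1 had the lowest count, and the groups overlapped. MSRB3, a methionine sulfoxide reductase gene, gave novel_circ_0004562 (chromosome 3, 154578000 to 154642869, minus strand). Sham counts were 18, 24, 16, 29 and 11, and those after ovariectomy were 57, 22, 26, 18 and 39, with replicate 1 the highest.

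The longest span was that of GPHN, 89571 bases (novel_circ_0008587, chromosome 7, 76967700 to 77057270, plus strand), with 25 reads in 6 libraries. Next came ARHGAP10 with 88794 bases, PRKCE with 88641, RAB28 with 87362 and a STAU2 circRNA with 87034. No circRNA of any kind in the table spanned more than 99384 bases. At the lower limit, the circRNAs just inside were those of PCGF5 (50257 bases, 25 reads) and ARHGAP5 (50278 bases, 10 reads). Just outside were those of TLK1 (49789 bases, 11 reads) and MYO9A (49966 bases, 10 reads).

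ARHGAP10, a GTPase activating protein gene, and STAU2, which encodes a double-stranded RNA-binding protein, gave 3 long-span circRNAs each. In ARHGAP10, novel_circ_0013408 (chromosome 17, 10276004 to 10334308, minus strand) held all 5 blocks of novel_circ_0013406 (10276004 to 10330184) plus 2 more at its 5′ end. They had 134 and 159 reads. The third, novel_circ_0013397 (10216068 to 10304861), began at a block inside both and reached farther 3′, with 88 reads. In STAU2, the 3 long-span circRNAs on chromosome 9 all listed 1 common block. They were novel_circ_0009791 (49908063 to 49994334) with 148 reads, novel_circ_0009795 (49918012 to 49994334) with 120 and novel_circ_0009796 (49918012 to 50005045) with 95. Each was listed in all 10 libraries. Each of these circles was a small part of its host's output: 2.55% to 4.60% of reads in ARHGAP10 and 2.61% to 4.06% in STAU2.

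Of the 5 hosts with 2 long-span circRNAs, those of PHKB, LOC101108695, RERE and ZMYND11 shared a start or an end and at least 1 block. PHKB, which encodes the beta subunit of phosphorylase kinase in glycogen breakdown, gave novel_circ_0012272 (chromosome 14, 15451165 to 15534822) and novel_circ_0012270 (15451165 to 15515982) from one start. They had 125 and 93 reads. LOC101108695 gave novel_circ_0015019 with 133 reads and novel_circ_0015020 with 7, again from one coordinate. ZMYND11, which encodes a reader of methylated histone H3, gave novel_circ_0011999 with 131 reads in 10 libraries and novel_circ_0012000 with 5 reads in 1. Over all 11 pairs of long-span circRNAs from one host, 10 shared a block and 7 shared a start or an end. The EVI5 pair shared no block, start or end.

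Long-span circRNAs were listed in more libraries than shorter ones. Of the 86, 22 (25.6%) were listed in all 10 libraries and 13 (15.1%) in a single one. In the shorter set these shares were 11.6% and 33.1%. Within each library, the share of listed circRNAs found in no other library was 2.55% ± 3.25 of the long-span and 8.14% ± 1.41 of the shorter circRNAs (SD, n = 10 libraries). It was lower for the long-span circRNAs in 10 of 10 libraries, by 5.59 percentage points on average. A two-sided exact sign-flip permutation test over libraries gave p = 0.00195, the smallest possible, and 0.00586 after Benjamini-Hochberg adjustment over 3 such tests. The 10 differences are not independent, as each library's share is defined by the other libraries. The long-span side rests on 13 circRNAs. Here and in the within-library tests below, the same sets of circRNAs are read in every library. Such a p-value thus describes these sets and libraries, not long-span circRNAs in general. For this share the same sign and side of 0.05 held with 2 blocks on both sides (-6.11 points, exact permutation p = 0.0391) and with 3 (-5.16 points, exact permutation p = 0.00195). The share listed in all 10 libraries did not keep its direction. With 2 blocks it was 3.125% for long-span and 6.51% for shorter circRNAs, and the median number of libraries was 2 in both. With 3 blocks it was 31.25% and 12.4%.

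**Figure D2:**
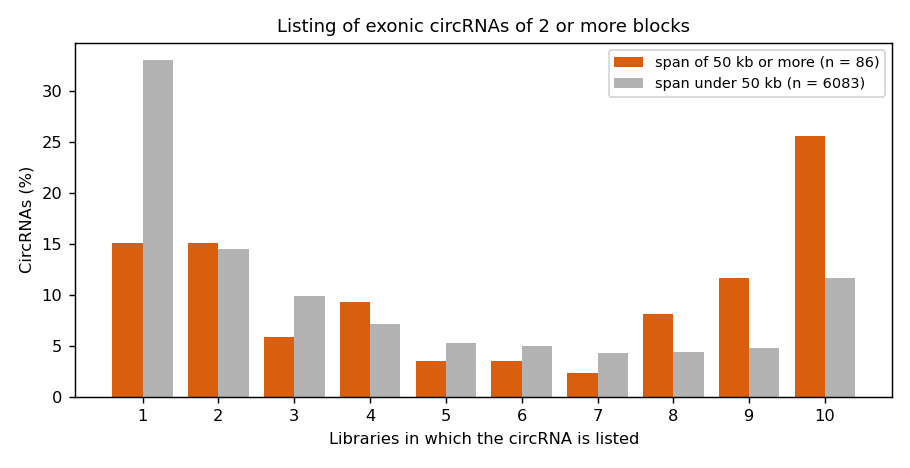
Percent of circRNAs (y axis) by the number of libraries that list them (x axis), for 86 long-span and 6083 shorter exonic circRNAs of 2 or more blocks. The long-span bars stand at 25.6% in all 10 libraries and 15.1% in 1 library, against 11.6% and 33.1%.

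Junction reads per circRNA depended on the summary used. The median over listed circRNAs was 8.25 ± 1.30 reads per library for long-span and 6.20 ± 1.03 for shorter ones (SD, n = 10), higher in 9 libraries and equal in 1. The difference was 2.05 with an exact sign-flip permutation p of 0.00391. The mean went the other way: 12.6 ± 2.49 reads against 15.4 ± 2.59 (SD, n = 10), a difference of -2.84, lower in 8 of 10 libraries, with an exact permutation p of 0.00781 and an adjusted exact permutation p of 0.0117. Among circRNAs of 3 blocks the difference of means was -0.61 with an exact permutation p of 0.342. No long-span circRNA had more than 521 reads in all, while 109 shorter ones (1.79%) did, and they held 42.8% of the reads of their set.

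**Figure D3:**
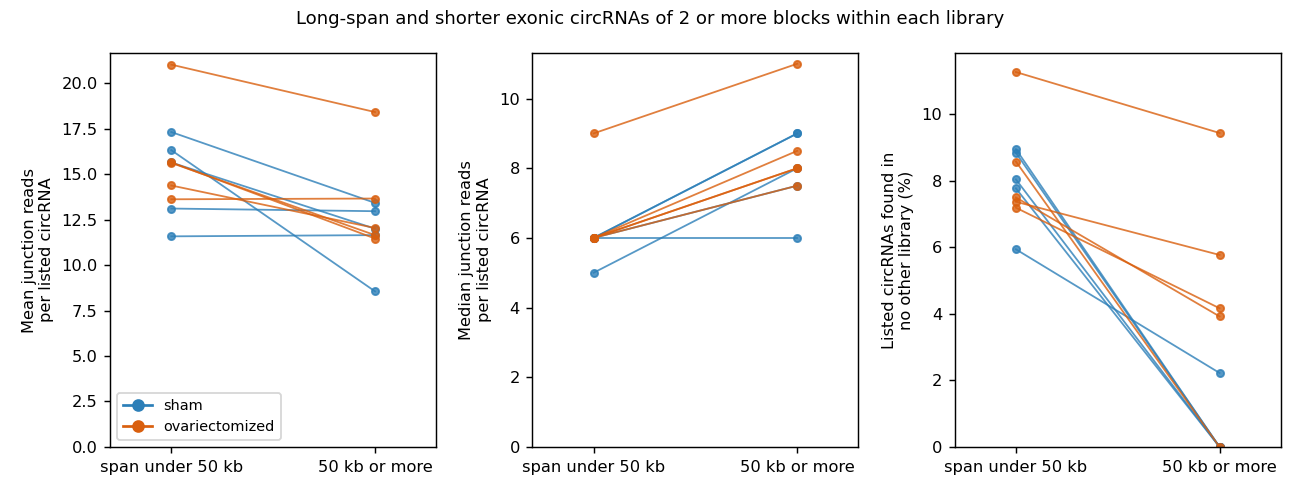
Mean junction reads, median junction reads and percent of listed circRNAs found in no other library (y axes), each for shorter and long-span exonic circRNAs of 2 or more blocks; lines join the values of 1 library, coloured by group. The median is higher and the share found in 1 library lower for long-span circRNAs, while the mean is lower in 8 of 10 libraries.

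By span, median totals were 11 reads for circRNAs of under 5000 bases, 12 for those of 5000 to 10000 and of 10000 to 20000, 14 for 20000 to 30000, 16 for 30000 to 50000 and 34.5 for the long-span ones. The share listed in 1 library went from 35.3% to 23.4% over the first 5 of these classes. Block number moves with span, and the long-span circRNAs of 2 blocks had a median of 10 reads, near the 9 of shorter ones with 2 blocks. With 3 blocks the medians were 59.5 and 13, with 4 blocks 62.5 and 26, and with 5 or more 209 and 64. These medians describe circRNAs, which are not replicates and in part share a host.

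**Figure D4:**
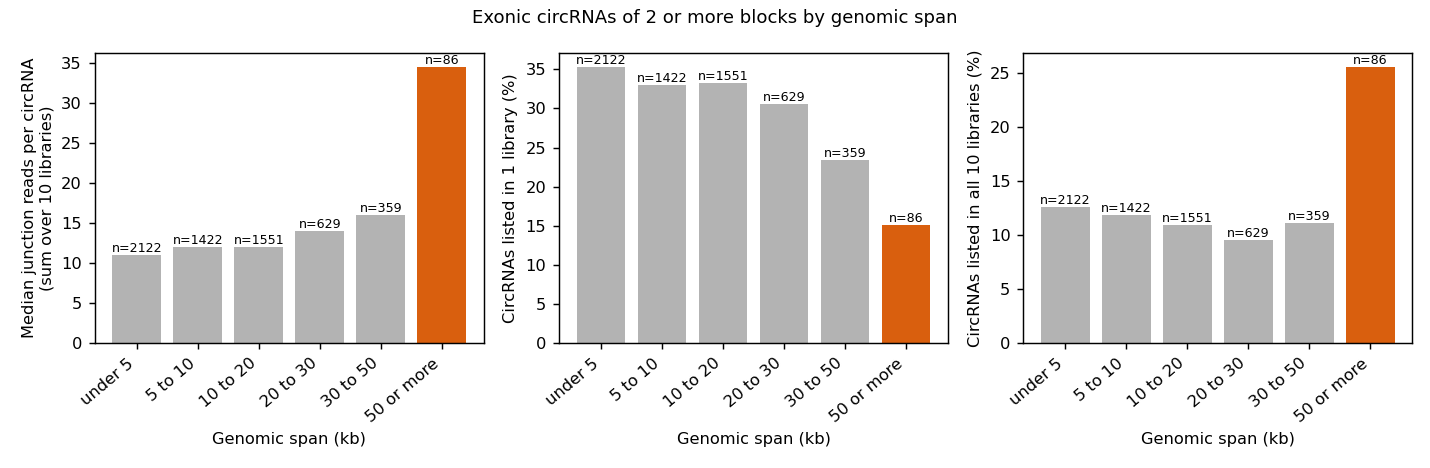
Median junction reads per circRNA over 10 libraries, percent listed in 1 library and percent listed in all 10 (y axes) for exonic circRNAs of 2 or more blocks in 6 classes of genomic span (x axis, kilobases; n above each bar). The long-span class, at the right, has a median of 34.5 reads, with 15.1% in 1 library and 25.6% in all 10.

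For non-junction reads per junction read the difference between the sets did not pass 0.05. The library medians were 23.2 ± 7.95 for long-span and 19.8 ± 3.72 for shorter circRNAs (SD, n = 10), a difference of 3.39 with an exact sign-flip permutation p of 0.125. It passed when counts under 5 reads were left out (5.33, exact permutation p = 0.00195), at spans of 70000 bases or more (8.55, exact permutation p = 0.00391), with 2 blocks on both sides (5.87, exact permutation p = 0.0215) and without ovariectomized replicate 3 (4.17, exact permutation p = 0.043). Without sham replicate 1 it was 1.54 with an exact permutation p of 0.25, and it was -2.67 with an exact permutation p of 0.488 as a ratio of summed reads. With each circRNA's reads summed over the libraries, the median ratio was lower for long-span circRNAs, 21.2 against 24.3. It was 23.4 against 25.9 with 2 blocks, 17.5 against 24.0 with 3 and 10.2 against 14.5 with 5 or more. With 4 blocks it was higher, 35.9 against 21.2. The direction thus depended on the summary. Among the 22 with at least 100 reads the ratio ran from 0.797 in MINDY3, 1.25 in RIMS2 (novel_circ_0009888) and 1.89 in TMTC2 (novel_circ_0004268) to 129.6 in SNTB1 (novel_circ_0010113), which encodes a syntrophin of the dystrophin complex, and 143.9 in PHKB (novel_circ_0012272). Over all 86 the highest was 240.4, in DMD (novel_circ_0017217), with 63 reads.

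Between the groups, the long-span circRNAs as a whole did not differ beyond the spread. Sham libraries listed 45 to 54 of them and ovariectomized libraries 47 to 53, averaging 49.6 ± 3.36 and 50.2 ± 2.59 (SD, n = 5 each; exact permutation p = 0.833). They took 1.40% ± 0.276 of all junction reads in sham libraries and 1.44% ± 0.114 after ovariectomy (SD, n = 5 each; exact permutation p = 0.706). Their share of the reads of exonic circRNAs of 2 or more blocks was 1.62% ± 0.350 and 1.69% ± 0.127 (SD, n = 5 each; exact permutation p = 0.675). Each Benjamini-Hochberg adjusted exact permutation p over these 3 tests was 0.833. All 3 differences turned negative without sham replicate 1, which had the lowest share (1.04%) and the fewest listed.

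Of the 86, 64 were listed in both groups, 17 in ovariectomized libraries alone and 5 in sham alone. In the shorter set these shares were close, 20.8% and 20.4%, against 19.8% and 5.81% here. Single-library circRNAs numbered 1 in sham (ZMYND11) and 12 in ovariectomized libraries, 5 of them in replicate 5, the deepest library. Each sham library held 0.20 ± 0.447 of them and each ovariectomized one 2.40 ± 1.82 (SD, n = 5 each). In the shorter set, single-library circRNAs were nearly even, 979 in sham and 1032 in ovariectomized libraries. The count of long-span single-library circRNAs was looked at after the listing was seen, so no test is given. None of the 22 long-span circRNAs listed in 1 group alone was in more than 4 libraries or above 16 reads in all. The circRNA of ATAD2B, a bromodomain protein gene, had 2, 7, 3 and 4 reads in sham replicates 1 to 4 and no entry elsewhere. That of ERC1 had 4, 2 and 7 reads in ovariectomized replicates 2 to 4 and no entry elsewhere.

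The test for single circRNAs was limma voom on all circRNAs with at least 10 scaled reads in at least 5 libraries, which 738 circRNAs and 18 of the 86 passed. These 18 held 62.4% of long-span reads. None passed an adjusted p of 0.05, where 0% of all 738 did. At an unadjusted p under 0.05 there were 2 of 18, both lower after ovariectomy, against 5.69% of all tested in either direction and 4.47% lower and 1.22% higher by direction. Estimates were higher after ovariectomy for 9 and lower for 9, but the number lower was 6 with library totals alone, 7 with scaling from all circRNAs, 11 with the replicate block and 5 of 16 tested without sham replicate 3. The median log2 fold change was 0.01 against -0.04 over all 738. RIMS2 and ARHGAP10 (novel_circ_0013408) had estimates above 0 although their mean normalized reads were lower after ovariectomy, 9.34 against 11.6 and 11.7 against 13.5. The median standard error was 0.43 on the log2 scale.

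The smallest p belonged to novel_circ_0009012 of REV3L, the gene of the catalytic subunit of DNA polymerase zeta, which copies past DNA damage (chromosome 8, 26257148 to 26322799, plus strand). Its 3 blocks leave a longest gap of 56833 bases. Sham counts were 22, 42, 30, 56 and 29, and those after ovariectomy 16, 18, 18, 18 and 26. In normalized reads every ovariectomized library lay below every sham library, and the groups did not overlap, in either direction, for 1.36% of the 738. The limma estimate was a log2 fold change of -1.14 ± 0.29 (SE), and its adjusted p of 0.407 did not pass.

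The other at an unadjusted p under 0.05 was novel_circ_0011999 of ZMYND11 (chromosome 13, 46439552 to 46495419, minus strand). Sham counts were 7, 20, 13, 31 and 12, against 11, 17, 4, 11 and 5 after ovariectomy. The groups overlapped, with 17.96 ± 8.98 and 9.10 ± 5.75 normalized reads (SD, n = 5 each). The limma log2 estimate was -1.53 ± 0.57 (SE; adjusted p = 0.781), and -0.73 when ovariectomized replicate 5 was left out.

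The next on the lower side were MICU3 at -0.53 ± 0.34, STAU2 (novel_circ_0009791) at -0.58 ± 0.41 and RNGTT, the mRNA capping enzyme gene (novel_circ_0009162), at -0.29 ± 0.45. Their limma adjusted p-values were 0.836, 0.847 and 0.939. On the higher side the smallest p belonged to MARK3 at 0.36 ± 0.27, PHKB (novel_circ_0012272) at 0.80 ± 0.71, MSRB3 at 0.36 ± 0.38, MINDY3 at 0.24 ± 0.29 and KIFAP3 at 0.18 ± 0.26. Their limma adjusted p-values were 0.847, 0.847, 0.861, 0.914 and 0.939. PHKB had sham counts of 6, 9, 5, 6 and 11 and counts of 5, 15, 23, 26 and 19 after ovariectomy, with ovariectomized replicate 1 the lowest of its group. Each of these estimates lay within 2 standard errors of 0.

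**Figure D5:**
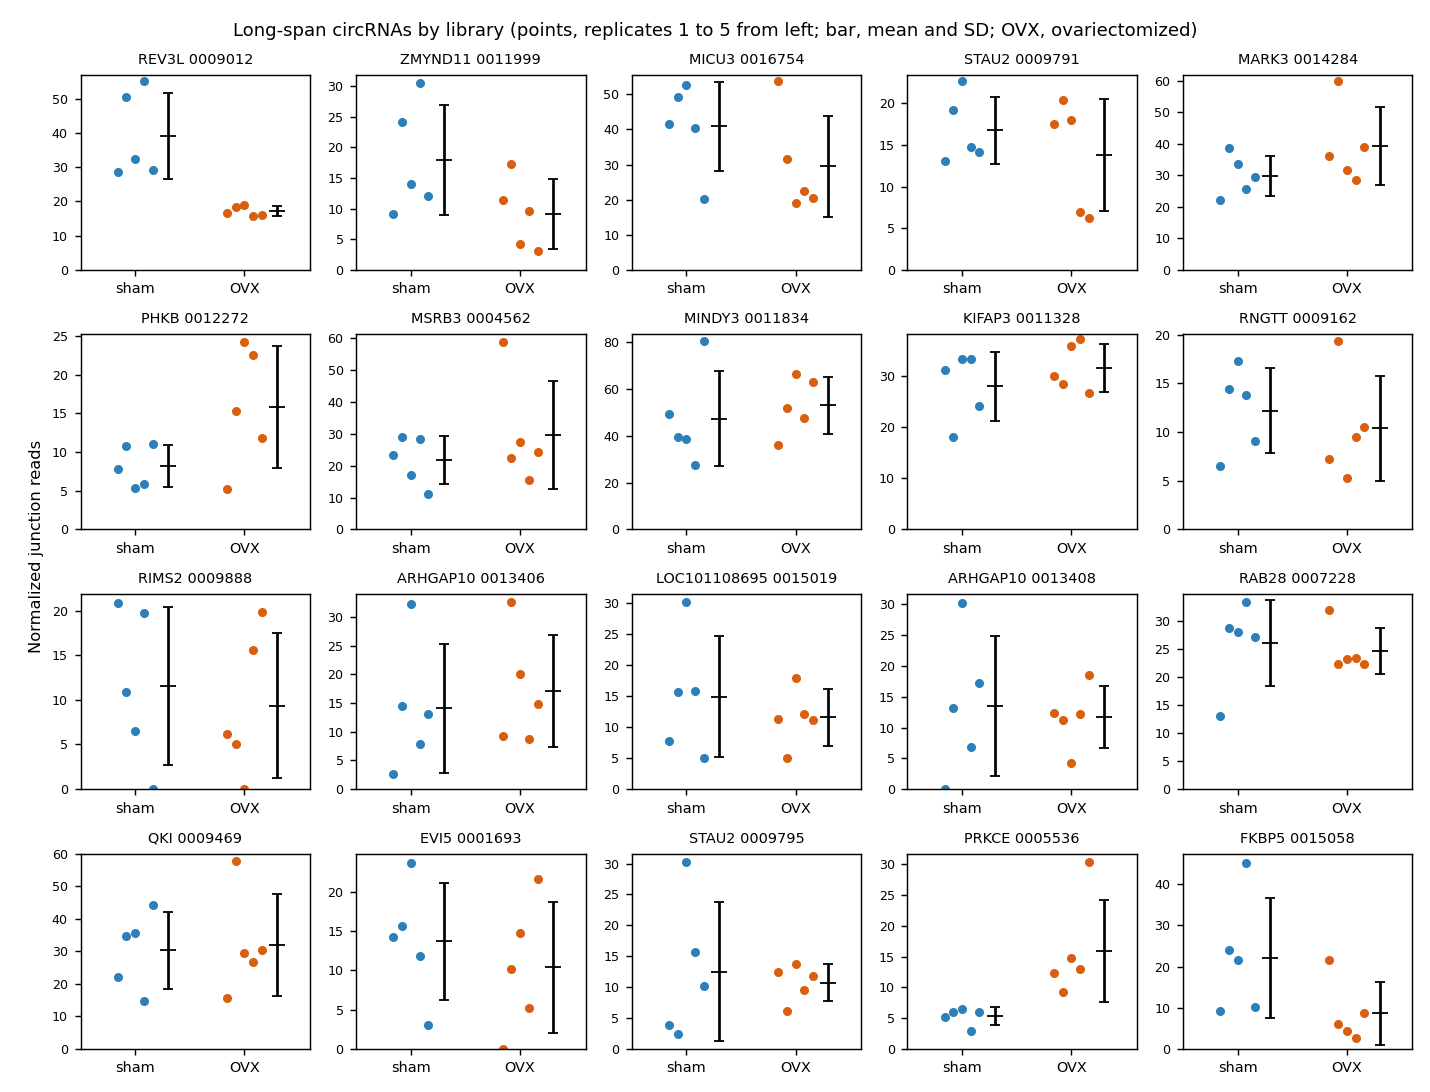
Normalized junction reads (y axes, each from 0) in 5 sham and 5 ovariectomized libraries for the 18 tested long-span circRNAs and, last, those of PRKCE and FKBP5, which were below the filter; points are libraries, bars mean and SD. The groups are apart for REV3L and PRKCE and overlap in the other panels.

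Among the 22 long-span circRNAs listed in all 10 libraries, the groups did not overlap in 2, REV3L and PRKCE, against 1.36% of the 806 such circRNAs in the table. PRKCE encodes the epsilon form of protein kinase C. Its novel_circ_0005536 (chromosome 3, 78245055 to 78333695, minus strand) listed 3 blocks, with 1 gap of 84618 bases. Sham counts were 4, 5, 6, 3 and 6, all below the 12, 9, 14, 15 and 49 after ovariectomy. That is 5.34 ± 1.41 and 15.9 ± 8.32 normalized reads (SD, n = 5 each). It was below the filter. With the filter loosened to 2 or more reads in at least 5 libraries limma put its log2 change at 1.54 ± 0.73 (SE; adjusted p = 0.613), so it did not pass there either.

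That looser fit tested 47 of the 86 among 2690 circRNAs. None of the 47 passed, against 0.149% of all. At an unadjusted p under 0.05 there were 11 of 47, 9 lower and 2 higher after ovariectomy, against 7.92% of all in either direction. The share of all was not split by direction in this fit. In the main test it leaned to lower, with 4.47% of all 738 lower and 1.22% higher. The 9 lower included FKBP5, the gene of a steroid receptor co-chaperone, at -1.39 ± 0.58, and DMD, the dystrophin gene, at -2.11 ± 0.95. SNTB1 was at -1.85 ± 0.86. Their limma adjusted p-values were 0.563, 0.590 and 0.593. This looser filter can be met by the 5 libraries of 1 group alone. DMD and SNTB1 met it that way, each listed in 5 sham and 3 ovariectomized libraries. On the higher side so did TMTC2, listed in 4 sham and 5 ovariectomized libraries. The counts of 9 lower and 2 higher therefore give no support for a change. The FKBP5 circRNA novel_circ_0015058 (chromosome 20, 9763049 to 9816302, minus strand) had sham counts of 7, 20, 20, 46 and 10 and counts of 21, 6, 4, 3 and 14 after ovariectomy. Ovariectomized replicates 1 and 5 lay inside the sham range of raw counts. The DMD circRNA novel_circ_0017217 had sham counts of 5, 8, 10, 18 and 4 and counts of 7, 0, 0, 5 and 6 after ovariectomy, where a 0 is a library with no entry. With no filter, 16 of 86 were at an unadjusted limma p under 0.05, against 6.19% of all 8721. The median total was 34.5 reads for the 86 and 10 for all 8721, so these shares are not at like depth.

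The authors' deposited table gave 8 of the 86 a p under 0.05 and none an adjusted p under 0.05, against 1.35% and 0.0115% of all 8721. These shares too are over circRNAs of unlike depth. Of all 8721, 37.5% were listed in 1 library, against 15.1% of the 86. What part depth had in the shares was not tested. In that deposited table the log2 fold change is sham over ovariectomized. The authors' deposited values were 1.17 for REV3L with a p of 0.000418 and an adjusted p of 0.554, and -1.65 for PRKCE with a p of 0.0029 and an adjusted p of 0.966.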

How the data were processed

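Directional RNA libraries were made per the labels' protocols, and the submitters' processing notes name HISAT2. Caller, build and annotation: not given in the sources used here. The authors' deposited table lists whole-number junction and non-junction read counts as comma-separated lists per circRNA, of which 2 is the smallest. They were unpacked, and a library without an entry was set to 0. The lists also hold 10 sample names of no series sample, which were not used. The span is the deposited full length. The second deposited table holds each group's mean normalized read signal. It also gives the authors' log2 fold change and p-value, raw and adjusted. Starts are counted from 1, and chromosome numbers come from the hosts in the RefSeq gene table.

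CircRNAs were tested where at least 5 libraries had 10 or more reads at the depth of the median library, with a total of at least 15. Library sizes were summed over tested circRNAs and scaled by trimmed means of M values (30% of ratios and 5% of abundances). Group was the only term in limma voom 3.58.1 (R 4.3.3, statmod 1.5.0), with robust variances and Benjamini-Hochberg adjustment over all 738. The functions were tested on simulated counts of this comparison with 200 changed circRNAs, drawn from those with a mean above 15 normalized reads. Of the changed ones that passed the filter, 3.03% of 198 were recovered at 1.5-fold, 36.98% of 192 at 2-fold and 99.4% of 179 at 4-fold. In all, 736, 748 and 730 circRNAs were tested. Some tested long-span circRNAs lay below that mean, such as RNGTT (12.2 in sham, 10.4 after ovariectomy), and the recovery does not apply to them. Library values used two-sided exact permutation tests, with smallest p of 0.00794 between groups and 0.00195 within libraries (scipy 1.17.1 for the adjustment). Depth was 35731 to 67061 junction reads per library.

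Members and lists were chosen with earlier results of these data known. Named circRNAs are the 12 with most reads, the 5 longest, the 3 with most blocks, the 5 smallest p in each direction, those of the 5 hosts with most, and those at the span limit. Others named were chosen after their values were seen. The planned span of 100000 bases held no circRNA and was replaced by 70000.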

Additional observations from a re-analysis of the deposited data

Results flagged for a closer look

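Of 59 groups of 5 values tested for a library far from the others, 6 stood out, where chance alone would give about 1 in 20. In sham replicate 1 the median of non-junction reads per junction read was 20.01 higher in long-span than in shorter circRNAs, where the other sham libraries had differences of -1.16 to 3.81. That library also stood apart in the share found in no other library, at -3.72 percentage points against -8.95 to -7.77. Ovariectomized replicate 2 had -8.58 points against -3.58 to -1.60 in the others of its group, as it held no long-span circRNA found in it alone. The MSRB3 circRNA novel_circ_0004562 stood at 58.9 normalized reads in ovariectomized replicate 1, the rest of that group at 15.6 to 27.5. The RAB28 circRNA novel_circ_0007228 had 32.0 in ovariectomized replicate 1 against 22.3 to 23.4. The PRKCE circRNA novel_circ_0005536 had 30.4 in ovariectomized replicate 5 against 9.16 to 14.8.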

How the results depend on the processing

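No long-span circRNA passed an adjusted p of 0.05 under any limma setting tried; over 322 alternative estimates of the 18 tested, the lowest adjusted p was 0.206 (REV3L with a replicate block), 296 kept their direction and 26, from 7 circRNAs, reversed. The count at an unadjusted p under 0.05, 2 in the report, was 1 with library totals alone, 1 with limma trend at either pseudocount, 11 with the looser filter, 16 with no filter, 0 at spans of 70000 bases or more, and 1 to 3 without single libraries (1 without ovariectomized replicate 5).

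Log2 estimates that reversed were near 0 or had wide errors. RAB28 was 0.159 with library totals, 0.0042 with scaling from all circRNAs and -0.27 to 0.061 without single libraries. STAU2 novel_circ_0009795 was 0.0335 with library totals, 0.17 with the looser filter, 0.24 with none, 0.19 and 0.23 with limma trend, 0.14 with scaling from all circRNAs and -0.32 to 0.16 without single libraries. RIMS2 was -0.28 and -0.29 with limma trend, -0.63 with the replicate block and -0.46 to 1.10 without single libraries. ARHGAP10 novel_circ_0013408 was -0.31 with the block and -0.24 to 0.86 without single libraries. LOC101108695 was 0.0327 with library totals and -0.59 to 0.16 without single libraries. Ranges without single libraries were -0.17 to 0.27 for QKI and -1.197 to 0.22 for EVI5.

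Within libraries, the difference in mean reads was -0.61 among circRNAs of 3 blocks and 2.05 as a difference of medians. The difference in non-junction per junction reads was 5.33 for counts of at least 5, 8.55 at spans of 70000 or more, 5.87 for 2 blocks, -2.67 as a ratio of sums and 1.54 to 4.17 without single libraries. Between groups, ranges without single libraries were -0.0419 to 0.119 points for the share of junction reads, -0.55 to 1.7 for the number listed and -0.0331 to 0.167 for the share of multi-block reads, negative without sham replicate 1 and, for the number listed, without ovariectomized replicate 5. The causes were not tested.

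Same-numbered libraries correlated at -0.11 to 0.18, which does not settle whether the numbers pair them. With the replicate block 0 passed, 2 were at an unadjusted p under 0.05, and the exact permutation p-values of the group differences of 0.0469, 0.60 and 0.0750 were 0.75, 0.875 and 0.688. Spans, block numbers and scaling from all circRNAs were alternatives chosen after seeing the data. The planned span of 100000 bases gave no value. Most long-span circRNAs had too few reads to be tested: 68 of 86 were below the filter.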
